A study of Mus musculus with 24 samples.

Results

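The genes described are 9 complement components and receptors of the mouse, C1qa, C1qb, C1qc, C3, Cfb, Cfp, C3ar1, C5ar1 and Serping1, measured in bone marrow-derived macrophages cultured with different sera. A gene was taken from the probe sets that the array's annotation ties to it alone, and where a gene had several, the one with the highest average signal across the 24 arrays was used. By this rule 8 of the 9 genes, among 18193 genes in all, had a probe set. No probe set named C3 alone, so C3 was not analysed here. Of the 8, 7 passed the filter on low values and entered the main test of 11785 genes, and Serping1 did not.

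Macrophages were grown from the marrow of C57/Bl6 mice, kept overnight in medium, washed, and moved to serum-free medium or to medium with 5% serum from fetal calves, mice or humans. Each of the 4 media was used without and with 25 ng/ml lipopolysaccharide (LPS), a bacterial cell wall product that activates Toll-like receptor 4, and cells were harvested 4 h later. Each of the 8 groups held 3 arrays, 1 from each of the replicate experiments G, H and I. All sera had been heated at 56 °C for 30 min, a treatment meant to inactivate the complement they contain. The labels do not say whether marrow was pooled or came from separate animals, so p-values measure the spread between these cultures. Values are log2 expression values deposited per probe set, and a difference of 1 is a doubling.

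Complement is a cascade of proteins that tag microbes and dying cells, attract leukocytes and can lyse membranes. C1q, built from the chains of C1qa, C1qb and C1qc, recognises targets for the classical pathway; factor B (Cfb) forms the alternative pathway's convertase, which properdin (Cfp) stabilises. The receptors C3aR (C3ar1) and C5aR1 (C5ar1) sense the fragments C3a and C5a, and C1 inhibitor (Serping1) blocks C1r, C1s and other proteases. Macrophages are a known source of C1q, properdin and factor B, whereas most circulating complement is made by the liver.

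RefSeq promoter sequences (build GRCm38.p6) were held for 6 of the 9 genes. The 250 bases before the start site are shown for 4 of them: C1qb and C1qc, neighbours on chromosome 4 that differed in the calls made after LPS, and the 2 anaphylatoxin receptor genes. Capitals mark matches on either strand to any of 6 motifs: the PU.1 core GAGGAA, the AP-1 site TGANTCA, the C/EBP site TTGCNNAA, the interferon-response core GAAANNGAA, the MAF core TGCTGA and the NF-kappaB consensus.
C1qb, chr4:136886201-136886450, minus strand: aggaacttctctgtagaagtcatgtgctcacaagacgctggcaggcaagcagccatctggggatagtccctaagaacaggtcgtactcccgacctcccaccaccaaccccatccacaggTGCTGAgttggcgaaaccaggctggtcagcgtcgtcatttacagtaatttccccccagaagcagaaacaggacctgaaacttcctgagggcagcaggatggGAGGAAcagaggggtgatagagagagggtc
C1qc, chr4:136892915-136893164, minus strand: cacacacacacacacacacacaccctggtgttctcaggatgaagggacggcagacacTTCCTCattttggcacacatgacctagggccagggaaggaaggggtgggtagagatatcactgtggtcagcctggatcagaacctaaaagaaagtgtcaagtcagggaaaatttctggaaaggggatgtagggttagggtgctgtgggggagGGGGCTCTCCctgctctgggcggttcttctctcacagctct
C3ar1, chr6:122856158-122856407, minus strand: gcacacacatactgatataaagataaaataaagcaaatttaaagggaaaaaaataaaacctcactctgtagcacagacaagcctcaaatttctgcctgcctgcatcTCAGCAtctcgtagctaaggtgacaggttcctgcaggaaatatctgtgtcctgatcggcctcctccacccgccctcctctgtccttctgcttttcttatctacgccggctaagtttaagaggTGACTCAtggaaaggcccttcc
C5ar1, chr7:16259339-16259588, minus strand: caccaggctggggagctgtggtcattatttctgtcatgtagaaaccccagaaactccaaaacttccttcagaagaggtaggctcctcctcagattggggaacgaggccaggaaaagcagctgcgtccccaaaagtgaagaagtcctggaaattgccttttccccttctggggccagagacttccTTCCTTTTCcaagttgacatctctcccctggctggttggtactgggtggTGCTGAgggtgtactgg
The C1qb window held 1 PU.1 core and 1 MAF core. The C1qc window held 1 PU.1 core on the opposite strand and 1 NF-kappaB match. The C3ar1 window held 1 AP-1 site, a near-palindrome that matches on both strands, and 1 MAF core, and the C5ar1 window held 1 interferon-response core and 1 MAF core. None of the 6 motifs was found in the window of Cfp. Among 32851 promoter windows of the same length, 23.3% held the PU.1 core, 6.75% the AP-1 site, 9.56% the C/EBP site, 7.13% the interferon-response core, 16.1% the MAF core and 7.25% the NF-kappaB consensus. These matches describe letters only; no binding was measured.

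The cultures carried the macrophage markers fixed for the comparison. All 7 measured markers, among them Csf1r, Cd68 and Adgre1, passed the filter, with a median level of 12.29, against 0 of 5 for T and NK cells, 0 of 5 for fibroblasts and stromal cells, 1 of 4 for mast cells and basophils, 2 of 4 for B cells, 2 of 4 for dendritic cells and 2 of 3 for hepatocytes. Of 7 neutrophil markers 5 passed, with S100a9 at 9.56 and S100a8 at 7.99, and the mean of that list ran from 5.73 (human serum without LPS) to 6.31 (calf serum with LPS) over the groups. The B cell marker Cd79b was lower in mean with LPS in each medium, at 5.44 against 6.84 for serum-free cultures, 5.22 against 7.26 for calf, 5.36 against 6.04 for mouse and 5.50 against 5.69 for human serum. The other B cell markers did not share this fall. Pax5 was higher in mean with LPS in each medium, at 5.09 against 4.82 for serum-free cultures and 5.17 against 4.69 for calf serum. It was 5.09 against 4.94 for mouse and 5.19 against 4.70 for human serum. Of the markers that did not pass, Ms4a1 was higher with LPS in each medium, and Cd79a in all but mouse serum. The platelet factor 4 gene Pf4, listed as a megakaryocyte marker, stood at 12.40. The part of other cells in the results below was not tested. In such bulk samples fewer cells of a type and less RNA per cell cannot be told apart.

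Without and with LPS, the C1qa, C1qb and C1qc probe sets gave strong signals in every medium. The plot of array values by medium shows the size of the LPS steps against the spread of each trio of arrays.

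**Figure D1:**
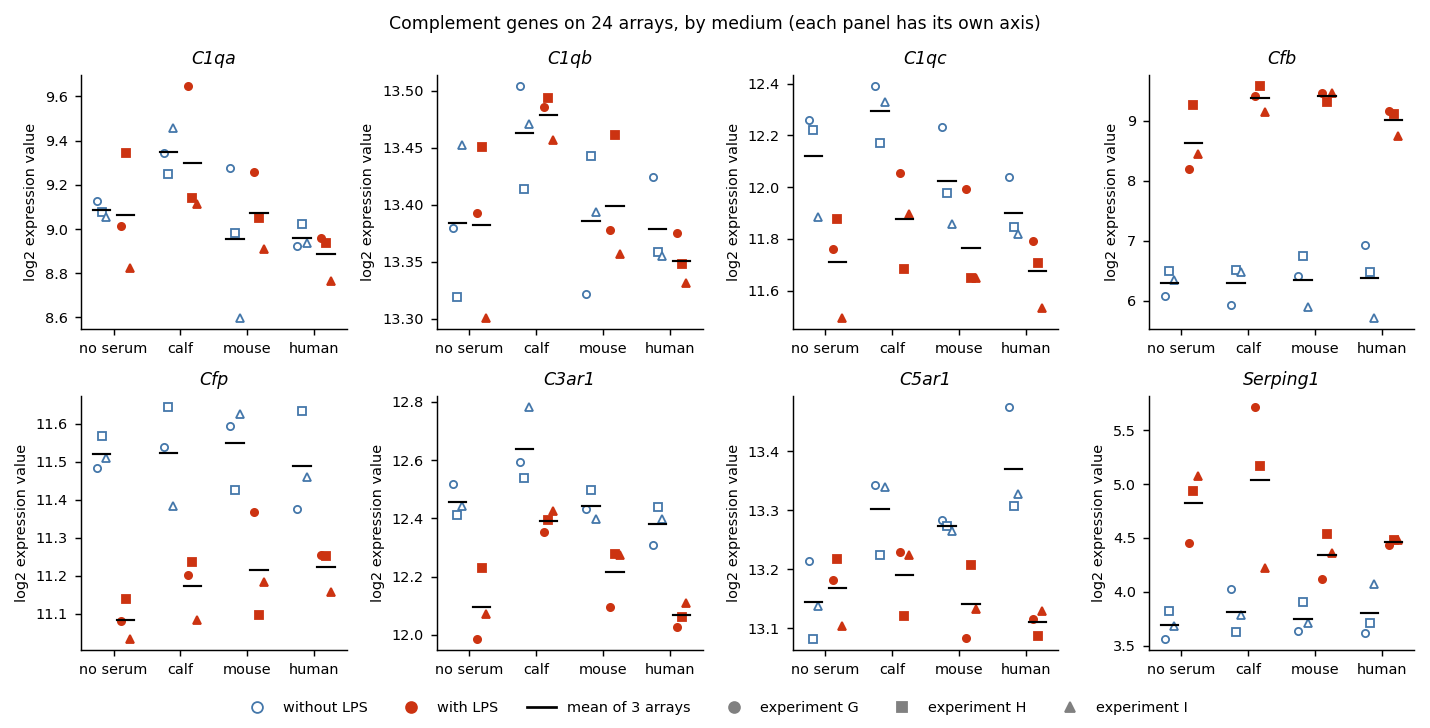
Log2 expression values of 8 complement genes on 24 arrays, by medium, with open blue symbols for cultures without LPS, filled red symbols for cultures with LPS, symbol shapes for the replicate experiments and black lines for means of 3 arrays. The Cfb arrays with LPS sit at 8.20 or above and those without at 6.93 or below, whereas the C1qb arrays all lie between 13.30 and 13.50.

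LPS raised Cfb in all 4 media, and it was the only one of the 7 tested genes that rose. Cfb lies next to C2 on chromosome 17, and its product is the catalytic subunit of the alternative pathway convertase. Without serum, the Cfb values on arrays G, H and I were 6.07, 6.49 and 6.34 without LPS and 8.20, 9.27 and 8.44 with it. In calf serum they were 5.93, 6.51 and 6.48 without and 9.41, 9.58 and 9.14 with LPS. In mouse serum they were 6.42, 6.75 and 5.90 without and 9.46, 9.31 and 9.46 with LPS. In human serum they were 6.93, 6.49 and 5.72 without and 9.17, 9.11 and 8.74 with LPS. Every array with LPS was thus higher than every array without. The Cfb difference was 2.33 ± 0.28 on the log2 scale (SE) without serum. It was 3.07 in calf serum (8.39-fold), 3.05 in mouse serum (8.30-fold) and 2.63 in human serum (6.17-fold), with the same SE. The largest of the 4 adjusted p-values was 1.77e-07 (limma, Benjamini-Hochberg over 11785 genes).

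The rises of Cfb did not differ between media beyond the test's threshold. With LPS, Cfb was higher in mouse serum than without serum by 0.77 ± 0.28 (adjusted p = 0.0702, limma; 0.0375 with the replicate experiment as a block), and higher in calf serum by 0.74 ± 0.28 (adjusted p = 0.096). The array without serum from experiment H, at 9.27, stood above its 2 partners; without it the Cfb differences were 1.09 for mouse serum (adjusted p = 0.0129) and 1.05 for calf serum (adjusted p = 0.02). With array batch as a block the difference for mouse serum was called with all arrays kept (adjusted p = 0.0402). Without LPS the group means of Cfb ran only from 6.30 to 6.38.

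LPS lowered Cfp and C3ar1 in all 4 media by small amounts, C1qc in 2 media and C5ar1 in 2. In each medium 1 of the 7 genes rose and 3 fell. Over all genes tested, 19.8% rose and 39.1% fell without serum. The shares were 20.8% and 37.8% for calf serum, 17.8% and 33.8% for mouse serum, 18.4% and 35.5% for human serum, so these counts are near the background. The median difference of all genes was itself negative, from -0.19 without serum to -0.15 in mouse serum. With each array centred on the median of the tested genes, an alternative added after results had been seen, that median became 0.03 to 0.07, none of the 7 genes was lower and the share of falling genes dropped (3733 genes higher and 2929 lower without serum, 3910 and 2752 for calf, 3079 and 2608 for mouse, 3226 and 2719 for human serum). The falls described here are hence falls on the deposited scale, and among the LPS responses of the 7 genes only the rise of Cfb was called under each scaling tried.

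**Figure D2:**
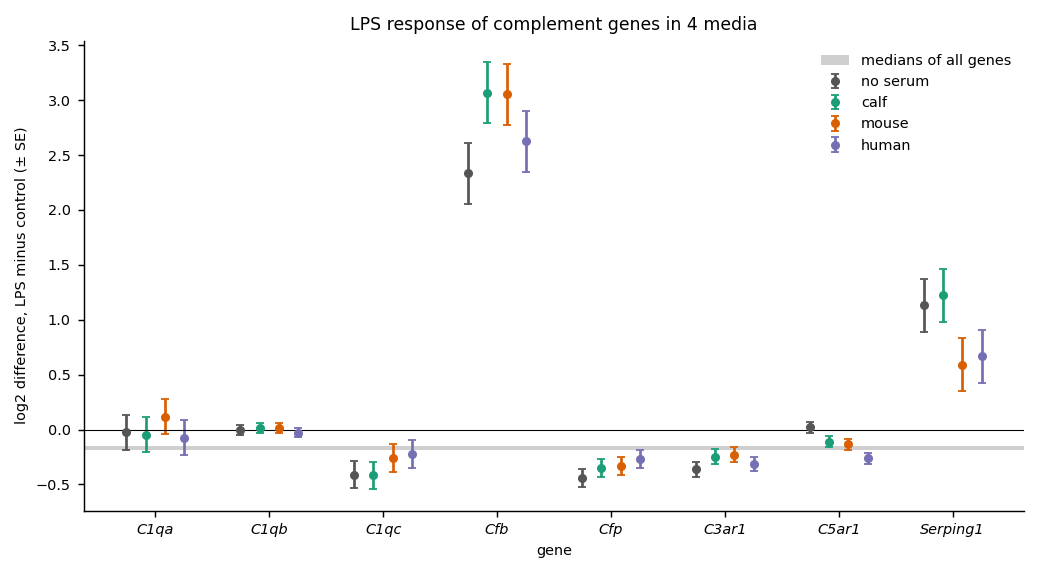
Log2 difference between arrays with and without LPS for each gene and medium, with bars of 1 standard error and a grey band for the range of medians over all tested genes. Cfb lies between 2.33 and 3.07, whereas the values of Cfp and C3ar1 lie a little below the grey band; Serping1 comes from a fit without the filter.

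Properdin stabilises the convertase to which factor B contributes. In no serum, its gene Cfp read 11.48, 11.57 and 11.51 without LPS and 11.08, 11.14 and 11.03 with LPS. The 2 trios did not overlap, nor did they in any of the other media. The Cfp difference was -0.44 ± 0.08 without serum (adjusted p = 8.4e-05, limma), -0.35 with calf, -0.33 with mouse and -0.27 with human serum (adjusted p = 9.46e-04, 0.00166 and 0.00856). The human serum call was lost without the control array of experiment H (adjusted p = 0.0692), without all of experiment H (0.0592) or without experiment I (0.0796), and the mouse serum call without experiment I (0.056). Centred on the tested genes, the Cfp differences were -0.19, -0.11, -0.15 and -0.08 and none was called. A dimmer Cfp probe set, 1447537_at, averaged 5.17 and gave larger differences. They were -1.43 without serum, -0.90 in calf and -1.31 in human serum, all called. The difference in mouse serum, -0.55, was not called (adjusted p = 0.158, limma over all probe sets kept). This probe set exceeded the filter's cut, the median of all values, on 10 arrays, all without LPS. It passed the filter only through those arrays, and its values with LPS lie near the array's floor. How that affects the size of these differences was not tested.

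Of the 3 C1q chains, only C1qc was called after LPS in the main test, and differences between the chains were not tested. C1qc on arrays G, H and I read 12.26, 12.22 and 11.89 without serum and 11.76, 11.88 and 11.49 there with LPS. In calf serum the C1qc values were 12.39, 12.17 and 12.33 without and 12.06, 11.68 and 11.89 with LPS. Neither pair of trios overlapped. LPS lowered C1qc by 0.41 ± 0.12 without serum (difference -0.41, adjusted p = 0.00715, limma) and by 0.42 in calf serum (difference -0.42, adjusted p = 0.00659). The C1qc differences in mouse serum, -0.26 (adjusted p = 0.0867), and human serum, -0.22 (adjusted p = 0.134), were not called; with the replicate experiment as a block they were (0.0169 and 0.0351), as with quantile normalization (0.0294 and 0.0411). With the tested genes centred, C1qc was called in none of the 4 media (0.248 without serum and 0.213 in calf serum). The call without serum was lost without the LPS array of experiment I (0.0587), and that in calf serum without experiment H (0.0587). No difference between media in the C1qc response was called.

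C1qa and C1qb passed the test in none of the 22 comparisons. C1qb read 13.38, 13.32 and 13.45 without serum and 13.39, 13.45 and 13.30 there with LPS, and its 95% interval for the LPS difference was -0.09 to 0.09. In the other media the C1qb differences were 0.02, 0.01 and -0.03, and the intervals stayed within -0.12 and 0.11. C1qa was noisier. Its LPS differences were -0.02, -0.05, 0.12 and -0.07 with an SE of 0.16, and the 95% intervals ran from -0.35 to 0.30 without serum and from -0.38 to 0.28 in calf serum, where the C1qc differences were -0.41 and -0.42; the difference between the 2 genes was not tested. The C1qa intervals reached down to -0.40 in human serum and up to 0.45 in mouse serum. The 2 other C1qb probe sets gave no LPS call in any medium, with differences from -0.22 to 0.04. Centred on the tested genes, C1qb was called higher with LPS in all 4 media, by 0.24, 0.25, 0.19 and 0.16.

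Over the 24 arrays, C1qc correlated at r = 0.62 with C1qa and 0.29 with C1qb, and C1qa with C1qb at 0.53. These are descriptions over arrays that share media and experiments.

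The C3a receptor gene C3ar1 was lower with LPS in each medium. Without serum its 3 arrays read 12.52, 12.41 and 12.44, against 11.99, 12.23 and 12.07 with LPS. In calf serum they read 12.59, 12.54 and 12.78, against 12.35, 12.39 and 12.43. The trios were separate in these media and in mouse and human serum. The C3ar1 difference was -0.36 ± 0.07 without serum (adjusted p = 7.18e-05, limma), -0.25 with calf (0.00324), -0.23 with mouse (0.00662) and -0.31 with human serum (3.76e-04). The calf call was lost without experiment I (0.0875) and the mouse call without the LPS array of experiment G (0.0551) or all of experiment G (0.0917). Centred on the tested genes, the C3ar1 differences ranged from -0.13 to -0.01 and none was called.

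The other C3ar1 probe sets divided on LPS. Probe set 1442082_at was lower with LPS in all 4 media, by 0.34 to 0.46 (differences -0.36, -0.42, -0.46 and -0.34). Probe set 1419482_at was called in none, at -0.20 without serum, 0.02 with calf, -0.12 with mouse and 0.04 with human serum, with an SE of 0.10. The LPS fall of C3ar1 thus depended on which probe set stood for the gene.

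C3ar1 was called higher in calf serum in 3 of the 6 comparisons of calf serum with another medium. Calf serum with LPS exceeded no serum with LPS by 0.29 ± 0.07 (adjusted p = 0.00496, limma), without overlap of the trios. Human serum was lower than calf serum by 0.32 with LPS (difference -0.32, adjusted p = 0.00313) and by 0.26 without LPS (difference -0.26, adjusted p = 0.0109). The mouse minus calf difference without LPS, -0.20, missed the threshold (adjusted p = 0.0726, limma). It was called with the replicate experiment (0.043) or array batch (0.0125) as a block and with quantile normalization (0.0402). It was also called without the calf control array of experiment H (0.0374) or all of experiment H (0.0474). The mouse minus calf difference with LPS, -0.18, missed the threshold too (adjusted p = 0.158). So did the calf minus no serum difference without LPS, 0.18 (adjusted p = 0.209, or 0.0448 with array batch as a block). Probe set 1419482_at, which showed no LPS call, gave the same calls for calf serum, at 0.47, -0.40 and -0.42, and was also lower in mouse than in calf serum with LPS (-0.38, adjusted p = 0.0358). Probe set 1442082_at agreed in sign, with 0.34 not called (adjusted p = 0.123) and -0.47 and -0.55 called. The calf minus no serum difference with LPS was not called without experiment G (0.0596) or I (0.104), the human minus calf difference with LPS not without experiment I (0.0689), and that without LPS not without the calf array of experiment I (0.0904), the human array of experiment G (0.0568), or experiment G (0.072) or I (0.238). Centred on the tested genes, the human minus calf difference without LPS also missed the threshold (adjusted p = 0.0948).

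The C5a receptor gene C5ar1 gave the 1 difference between media in an LPS response. Without serum C5ar1 read 13.21, 13.08 and 13.14 without and 13.18, 13.22 and 13.10 with LPS, and the trios overlapped. In human serum it read 13.47, 13.31 and 13.33 without and 13.12, 13.09 and 13.13 with LPS, and they did not. The LPS difference was 0.02 ± 0.05 without serum (adjusted p = 0.71, limma), -0.11 with calf serum (0.0577, or 0.0446 with the replicate experiment as a block), -0.13 with mouse serum (0.0282) and -0.26 with human serum (1.16e-04). The call in mouse serum was lost under centring of the arrays on their medians (0.101) and without either LPS array G or I or any 1 of the control arrays in mouse serum, with adjusted p from 0.0521 to 0.123. It was also lost without experiment G (0.188) or I (0.153) and with eBayes without trend and robust (0.124). With the tested genes centred the difference in mouse serum was 0.046 (adjusted p = 0.54, limma).

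The C5ar1 response in human serum was lower than that without serum by 0.28 ± 0.07 (difference -0.28, adjusted p = 0.0168, limma), in the same direction in experiments G, H and I. It missed the threshold without the no serum control array of experiment H (0.0606), without the human control array of experiment G (0.0532), and without experiment G (0.139), H (0.0969) or I (0.117). The same held with eBayes without trend and robust (0.138). Without LPS, C5ar1 was higher in human serum than without serum by 0.23 ± 0.05 (adjusted p = 0.00364, limma). That call was lost without experiment G (0.0501) or I (0.0709) and with eBayes without trend and robust (0.0526). With the tested genes centred, C5ar1 was called higher with LPS without serum (0.27, adjusted p = 5e-04) and lower in no medium. With LPS the group means of C5ar1 lay between 13.11 and 13.19.

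The other C5ar1 probe set, 1422190_at, gave larger differences, in a different order of the media. It read 10.58, 10.31 and 10.41 without serum and 10.25, 10.53 and 10.30 there with LPS. In mouse serum it read 11.19, 11.03 and 10.99 without and 10.40, 10.08 and 10.23 with LPS, and in human serum 10.97, 10.96 and 10.96 without and 10.16, 10.42 and 10.18 with LPS. The trios overlapped without serum and were far apart in both sera. Its LPS difference was -0.07 ± 0.10 without serum (adjusted p = 0.544, limma over all probe sets kept), -0.49 with calf, -0.83 with mouse and -0.71 with human serum, the last 3 called. The responses in mouse and human serum were below that without serum by 0.76 and 0.63 (differences -0.76 and -0.63, adjusted p = 0.0011 and 0.00777). Without LPS this C5ar1 probe set was higher in mouse serum than without serum by 0.64 and in human serum by 0.53 (adjusted p = 7.43e-05 and 8.89e-04). The 2 probe sets were measured on the same arrays and are not independent samples.

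**Figure D3:**
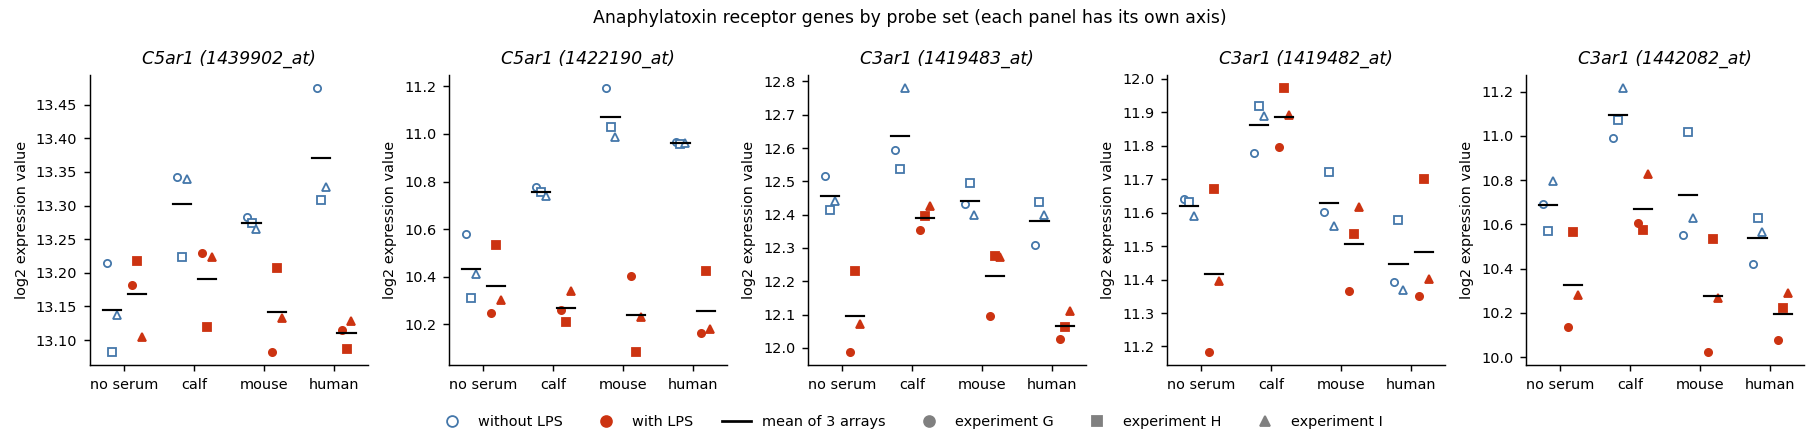
Log2 expression values of the 2 C5ar1 and 3 C3ar1 probe sets on 24 arrays by medium, drawn as in the plot of array values, with a separate axis in each panel. Probe set 1422190_at of C5ar1 spans 10.08 to 11.19, with the highest values in mouse and human serum without LPS, and probe set 1419482_at of C3ar1 is highest in calf serum with and without LPS.

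C1 inhibitor, encoded by Serping1, controls the proteases that associate with C1q. Its probe set lay above the median of all values, 5.08, on only 2 of 24 arrays, so it was tested in a fit of all 18193 genes without the filter. Serping1 read 3.56, 3.82 and 3.68 without serum and 4.45, 4.94 and 5.08 there with LPS. In calf serum it read 4.03, 3.63 and 3.78 without and 5.71, 5.17 and 4.22 with LPS. The trios did not overlap in any medium, although the calf arrays with LPS spread widely. The Serping1 difference was 1.13 ± 0.24 without serum (adjusted p = 4.84e-04, limma), 1.22 in calf (2.30e-04), 0.67 in human (0.0338) and 0.59 in mouse serum (0.0625, not called). These values lie near the array's floor, and how that affects the size of the change was not tested. No difference between media was called for Serping1.

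Between media, calls were few. Without LPS, none of the 7 genes was called between calf and no serum (2.96% of all genes were called in either direction), mouse and no serum (9.81%), mouse and calf serum (9.63%) or mouse and human serum (5.25%). The comparison of human with no serum called 1, C5ar1 (10.4%), and that of human with calf serum 2, C3ar1 and C1qc (14.7%). The C1qc difference between human and calf serum, -0.39 (adjusted p = 0.035, limma), was lost in 7 of the 9 cases in which 1 array of those groups or 1 experiment was left out (0.0558 to 0.176). The difference in C1qc between mouse and calf serum, -0.27, was called only with the replicate experiment as a block (adjusted p = 0.209 and 0.0472).

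With LPS, C3ar1 alone was called between calf and no serum (10.9% of all genes) and between human and calf serum (6.27%). None was called between mouse and no serum (13.4%), human and no serum (5.24%), mouse and calf serum (5.42%) or mouse and human serum (2.39%). Among the differences of LPS responses, C5ar1 was called for human against no serum (4.96% of all genes), and none of the 7 for calf against no serum (1.8%), mouse against no serum (6.46%), mouse against calf (3.78%), human against calf (4.6%) or mouse against human serum (0.628%). Comparisons with no serum share its 3 arrays.

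The other complement genes were taken from a list of 57 symbols, older names included. Of these, 40 had a probe set of their own and 18 passed the filter. With LPS, 3 of the 18 rose and 6 fell without serum. Clu, among these 3, passed the filter only through arrays with LPS. The counts were 2 and 7 with calf serum, 3 and 6 with mouse serum, and 2 and 8 with human serum. Of all genes tested, 19.8% rose and 39.1% fell without serum, 20.8% and 37.8% with calf, 17.8% and 33.8% with mouse and 18.4% and 35.5% with human serum, so the counts were not far from this background. The median difference over the 18 ran from -0.22 without serum to 0.07 in human serum. Centred on the tested genes, 7 rose and 4 fell without serum, 6 and 4 with calf serum, and 5 and 4 with either of the other two. The members that rose and fell are shown in the plot of the other complement genes.

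**Figure D4:**
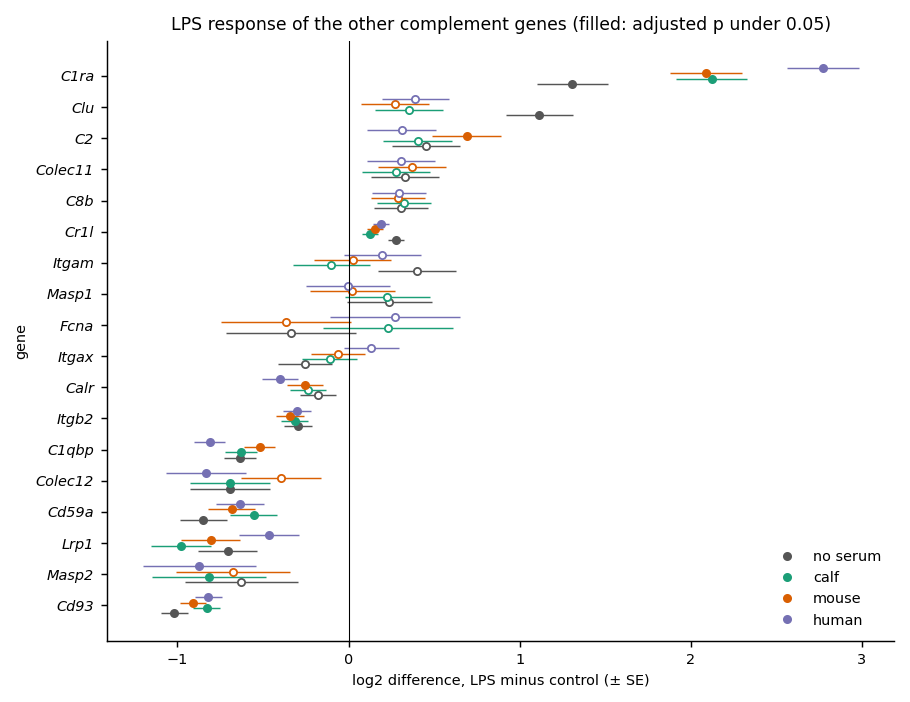
Log2 difference between arrays with and without LPS for 18 complement genes outside the group, by medium, with bars of 1 standard error and filled points where the adjusted p was under 0.05. C1ra lies furthest to the right, at 1.31 to 2.77, and Cd93 lies at -1.02 to -0.82.

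C1ra, which encodes the protease C1r that C1q activates, rose in all 4 media. It read 4.79, 5.31 and 5.04 without serum and 6.18, 6.81 and 6.08 there with LPS; in human serum it read 4.55, 4.67 and 4.44 without and 7.32, 7.63 and 7.03 with LPS. No trio with LPS touched one without. Of the arrays without LPS, only the no serum array of experiment H, at 5.31, exceeded the filter's cut, the median of all values. The C1ra values without LPS thus lie near the array's floor. How that affects the size of the C1ra differences, including the one between media, was not tested. The C1ra difference was 1.31 ± 0.21 without serum, 2.12 with calf, 2.09 with mouse and 2.77 with human serum (largest adjusted p = 1.18e-05, limma). The response in human serum exceeded that without serum by 1.46 ± 0.30 (adjusted p = 0.00328), a call lost without experiment G (0.0531) or I (0.106).

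Cd93, which encodes a receptor first described as binding C1q, fell in all 4 media. It read 12.22, 12.09 and 12.22 without serum and 11.11, 11.21 and 11.16 there with LPS. The Cd93 differences were -1.02 ± 0.08, -0.83, -0.91 and -0.82, with the largest adjusted p at 5.84e-09 (limma), and they stayed called under each scaling tried. Cd59a, which encodes an inhibitor of the membrane attack complex, differed by -0.85, -0.55, -0.68 and -0.63, all called. The receptor gene Lrp1 was also called lower in each medium (-0.71, -0.98, -0.80 and -0.47), though not in human serum when centred on the tested genes (adjusted p = 0.2, limma). The Lrp1 call in human serum was also lost without control array G (0.105) or LPS array H (0.0543) or I (0.0843). So it was without experiment H (0.0595) or I (0.115). The collectin gene Colec12 was called in 3 media (-0.69, -0.69 and -0.83 without serum, in calf and in human serum) and not in mouse serum (-0.39). Masp2, a lectin pathway protease gene, differed by -0.87 in human serum (adjusted p = 0.0307), and by -0.82 in calf serum (adjusted p = 0.039), there with experiment I at 0.0032 against -2.11 in experiment H. The human call was lost with quantile normalization (0.0746), with the tested genes centred (0.0791), without control array G (0.0986) or I (0.0602), without LPS array G (0.101) or I (0.0899), and without experiment G (0.284) or I (0.099). The calf call was lost under 10 of the alternatives, with adjusted p from 0.0509 to 0.647, the last without experiment H. With the tested genes centred, the Colec12 call remained in human serum and was lost without serum and in calf serum. Quantile normalization also lost the Colec12 calls without serum (0.0787, limma) and in calf serum (0.0713). The call without serum was lost without experiment I (0.115). That in calf serum was lost without LPS array H (0.0734) or experiment G (0.076), and that in human serum without experiment G (0.0521).

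The integrin beta chain gene Itgb2, part of complement receptors 3 and 4, was lower in all 4 media by about the same amount (-0.30, -0.32, -0.34 and -0.30), and in none when centred on the tested genes. Its alpha chain partner Itgam was not called in any medium (0.40, -0.10, 0.02 and 0.20). Cr1l, the rodent membrane regulator Crry, was slightly higher in each medium (0.28, 0.13, 0.15 and 0.19), but in none when the mean of its probe sets was used. C2, the classical pathway relative of factor B and its neighbour on the chromosome, was called in mouse serum only (0.69, adjusted p = 0.00594, limma), and differed by 0.45, 0.40 and 0.31 elsewhere; without the mouse LPS array of experiment G the call was lost (0.0543). Clu was called without serum only (1.12, adjusted p = 4.07e-05), and whether it differed from the sera was tested without a call. Vsig4, a macrophage receptor for C3b, averaged 2.68 and did not pass the filter, and no probe set named Cfd or C4b alone.

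Each tested gene's closest companions over the 24 arrays were found by Pearson correlation among the 11785 genes. Cfb was followed most closely by Ctsc (r = 0.98), Rap2c (0.98) and Stau1 (0.98), Cfp by Map1lc3b (0.94), H2aj (0.93) and Ubxn1 (0.93), and C3ar1 by Rpap1 (0.93), Cercam (0.91) and Sec61b (0.90). C1qc was followed by Clec4a2 (0.93), Zfp322a (0.89) and Inpp5f (0.88), and C5ar1 by Sqle (0.84), Kpnb1 (0.82) and Tardbp (0.82). For C1qa the highest were Ang (0.69), Tspan17 (0.68) and Vamp8 (0.67), and for C1qb Gm4047 (0.66), Egfl8 (0.66) and Gdf3 (0.63). The arrays share media, experiments and LPS, and no p-value is attached.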

How the data were processed

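Log2 expression values of 45101 probe sets on 24 single-colour Affymetrix arrays were analysed as the authors deposited them. GCRMA and Partek are named, with no settings, per the submitters' processing notes. The log base is not given in the sources used here; log2 was inferred from the range of 1.48 to 14.84. Control probe sets (64) were left out, 34945 probe sets named 1 gene, 932 several and 9160 none. Replicate arrays correlated at 0.983 to 0.992 and no arrays were identical. The number of arrays, 3 per group, limits the precision.

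A probe set was kept if 3 or more arrays exceeded 5.08, the median of all values (25525 passed), and the one with the highest mean stood for a gene (11785 genes). limma 3.58.1 under R 4.3.3 fitted 1 mean per group over all 24 arrays, with eBayes (trend, robust). In each of 22 comparisons p-values were two-sided and Benjamini-Hochberg adjusted over all genes, with a threshold of 0.05. The test was checked on simulated data. Other probe sets were tested in a fit over all probe sets kept.

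The letters G, H and I mark the replicate experiments that the labels say were performed, so they pair arrays across groups. Deviations from group means correlated at a median of 0.06 in 84 same-letter pairs of arrays (-0.05 to 0.18, 17 over 0.1) and -0.03 in 168 others. The fit without a block was the main one, and the paired fit's values stand beside results it changed, as for C5ar1 in calf serum (adjusted p = 0.0446). Labelled array batches follow the experiments, except that the calf control array of H has the batch of G.

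All members were described whatever their values. Of the other complement genes, at most the 3 largest called rises and falls, with the same sign in every experiment, and 8 fixed genes were to be named. The members and lists were chosen with earlier results of these data known. Promoters and gene names come from RefSeq tables; the arrays' own build is not given in the sources used here.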

Additional observations from a re-analysis of the deposited data

Results flagged for a closer look

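The LPS response of C5ar1 in human serum minus that without serum was -0.28 ± 0.07 on the log2 scale (adjusted p = 0.0168, limma). It stands out because the response to the same stimulus differed between these media by a test of the difference itself. The call was lost without any 1 of experiments G, H and I and with eBayes without trend and robust (adjusted p from 0.0969 to 0.139, limma). It was also lost without the no serum control array of experiment H (0.0606) or the human control array of experiment G (0.0532). The second C5ar1 probe set gave -0.63 for the same comparison (adjusted p = 0.00777). Groups of 3 arrays are too small for a test of single outlying arrays.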

How the results depend on the processing

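Single genes were followed under the alternatives for the LPS response in each medium. Any other comparison was followed only where its unadjusted p in the main fit was under 0.05 (limma). Of the 918 values so recomputed, 797 kept their direction and their side of the threshold. With the sign kept, 57 lost the call and 31 gained one. The other 33 changed sign, whether or not a call was lost or gained with it. Where no other cause is named, the cause was not tested. Leaving out arrays reduces the samples by construction.

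Sign changes concern C1qa, C1qb and C5ar1, of whose differences only C5ar1 in mouse serum (-0.13) had been called. Centring on the tested genes was chosen after seeing the data. With LPS and no serum, C1qa was 0.011 with arrays centred on their medians and 0.22 with the tested genes centred, and -0.17 to 0.093 when arrays or experiments were left out. C1qb there was 0.022 with quantile normalization, 0.034 and 0.24 under the 2 centrings and -0.069 to 0.072 with arrays left out. C5ar1 there was 0.27 and called higher with the tested genes centred, -0.025 with the mean of its probe sets and -0.033 to 0.057 with arrays left out. In calf serum C1qa was 0.19 with the tested genes centred and -0.23 to 0.098 with arrays left out, C1qb was -0.037 with the mean of its probe sets and -0.016 to 0.037 with arrays left out, and C5ar1 was 0.13 with the tested genes centred. In mouse serum C1qa was -0.059 to 0.28 with arrays left out, C1qb was -0.041 with the mean of its probe sets and -0.020 to 0.040 with arrays left out, and C5ar1 was 0.046 with the tested genes centred. In human serum C1qa was 0.12 and C1qb 0.16 with the tested genes centred, and C1qb 0.0025 with arrays centred on their medians.

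The number of members called moved as follows. With the tested genes centred it was 2 in place of 4 for LPS in calf, mouse and human serum, 3 in place of 4 for LPS without serum, and 0 in place of 2 for human against calf serum without LPS. The mean of all probe sets gave 1 in place of 0 for calf and mouse against no serum without LPS, for mouse against calf serum with LPS and for the LPS response in mouse against no serum. The replicate block gave 2 in place of 0 for mouse against calf serum without LPS and 1 in place of 0 for mouse against no serum with LPS. Array batch as a block gave 1 in place of 0 in both of these comparisons and for calf against no serum without LPS. Quantile normalization gave 1 in place of 0 for mouse against calf serum without LPS and 5 in place of 4 for LPS in mouse and human serum, and arrays centred on their medians gave 3 in place of 4 for LPS in mouse serum. For LPS the count was also 5 in place of 4 with the replicate block in calf, mouse and human serum, with array batch as a block in mouse serum and with the mean of all probe sets in calf serum, and 3 in human serum with that mean and in mouse serum with eBayes without trend and robust. eBayes without trend and robust gave 0 in place of 1 for human against no serum without LPS and for the LPS response in human against no serum, and 1 in place of 2 for human against calf serum without LPS; omitting the filter also gave 1 in place of 2 there. The replicate block changed no call of a member other than those given here and in the report.

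With arrays or experiments left out, the number called ran from 2 to 4 for LPS in mouse serum and 0 to 2 for human against calf serum without LPS and for calf against no serum with LPS. It ran from 0 to 1 for calf and human against no serum and mouse against calf serum without LPS, for mouse against no serum and human against calf serum with LPS, and for the LPS response in human against no serum.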
